A study of Mus musculus with 27 samples.

Results

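The livers compared here are the 4 taken on day 4 after weaning (ID4, for involution day 4) and the 3 taken on day 10 of lactation (LAC), chosen by their titles from the 27 liver libraries of a study of the reproductive cycle. All 7 came from wild-type BALB/C mice, an inbred laboratory strain. Per the labels, dams mated at 10 to 12 weeks old, litter size was evened out, and the ID4 pups had been removed after 10 to 14 days of lactation. The other stages were nulliparous (NUL, 4 mice), ID2, ID6 and ID8 (3, 6 and 3 mice, named in the same way) and REG, 4 weeks past weaning (4 mice). The rule names LAC and ID4 as the metabolic extremes of that cycle. The labels give neither the food intake nor the hour of sampling, and nothing in them says that livers were pooled.

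The lactating liver supports milk secretion by making glucose, triglyceride and cholesterol, the lipids being carried away in lipoproteins. Weaning ends the demand of the mammary gland abruptly, and the gland then regresses. Fatty acid synthesis is driven by the transcription factor SREBP-1c and by ChREBP, cholesterol synthesis by SREBP-2, and the programme for burning fat in fasting by PPAR alpha. Acute phase proteins, which the liver secretes in response to interleukin-6 and interleukin-1, are controlled by STAT3 and by C/EBP factors.

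The 7 libraries held 60984140 to 71340058 expected counts, the reads per gene as estimated by RSEM, which divides reads among the genes they could come from. Levels below are CPM, counts relative to each library's total after that total was adjusted by its TMM factor, and values for single livers follow the order LAC_200, LAC_213, LAC_240 and ID4_13, ID4_15, ID4_211, ID4_215. Differences are log2 values, ID4 minus LAC, with their standard error (SE) and the Benjamini-Hochberg adjusted p of edgeR's quasi-likelihood test. A gene is called where that adjusted p is under 0.05. Hepatocyte markers were abundant in every library, albumin alone taking 15.1% to 18% of counts in LAC and 6.82% to 8.00% in ID4. Pancreatic acinar genes summed to 167 CPM in ID4_15 and to 9.99 to 22.3 CPM in the other 6 libraries, and none of the 14 was called. No clock gene was called, of 9 in the arm driven by Bmal1 and 5 in the opposite arm, but livers of 1 group differed. Mean log2 CPM of the first arm minus the second ran from -2.52 to -1.04 in LAC and from -2.04 to -0.90 in ID4. ID4_13 and ID4_15 carry title numbers under 200 and no LAC library does, and LAC_200 was sequenced in 1 run against 2 for the other 6.

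Of 16428 genes tested, 3683 were called (22.4%), 1897 higher in ID4 (11.5%) and 1786 lower (10.9%). Among them, 1009 differed by more than 1 on the log2 scale, 559 higher and 450 lower. The members called in each gene list below are to be read against the 11.5% and 10.9% of all genes, and a list near those shares does not stand apart. Falls outnumbered rises among the steep differences: 282 called genes differed by more than 2, of which 177 were lower and 105 higher. The median over all genes tested was 0.0056. In 31.5% of the genes the CPM of the 2 groups did not overlap, ID4 above in 15.7% and below in 15.7%. Lack of overlap was also 1 condition for choosing the 15 steepest genes named in each direction. Read against the other 20 pairs of stages in the same fit, no pair had more calls. ID6 against LAC (6 and 3 mice) had 2694 (16.4%) and ID2 against LAC (3 and 3) had 2648 (16.1%), while ID4 against NUL (4 and 4) had 698 (4.25%). LAC against NUL (3 and 4) had 1837 (11.2%). Without the 2 ID4 libraries numbered under 200, 2280 genes were called, and 2 pairs of stages had more.

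**Figure D1:**
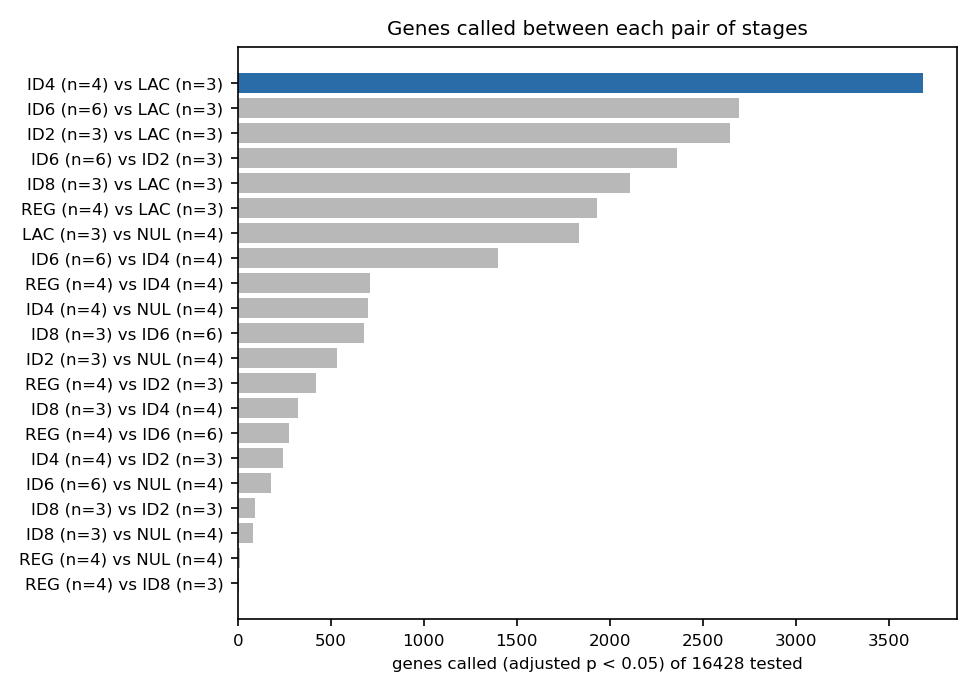
Number of genes called at an adjusted p under 0.05 (x axis) in each of the 21 pairs of stages (y axis, with the number of mice in each), all from 1 fit of 16428 genes. ID4 against LAC, in blue, had the most calls, 3683, and REG against ID8 the fewest, 8 (0.0487%).

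For 42.2% of the called genes the LAC mean and the ID4 mean were the highest and lowest of the 7 stage means, in either order, against 13.5% of all genes tested. That share describes genes chosen on the same contrast. LAC was at one end for 89.4% of the called genes, against 51.1% of all genes tested, and ID4 for 49.0%, against 29.2%.

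Fatty acid synthesis was among the programmes whose genes swung down. Of 22 genes of fatty acid and triglyceride synthesis, 16 fell and none rose, with a median difference of -1.64. Scd1, stearoyl-CoA desaturase, which puts the double bond into newly made fatty acids (chr19:44394455-44407879), stood at 14149, 13065 and 13200 CPM in LAC and at 184, 219, 272 and 172 CPM in ID4. The groups were far apart and the LAC livers nearly alike: Scd1 fell by 5.99 on the log2 scale (SE 0.48, edgeR adjusted p = 2.62e-08), a LAC mean 63.6 times that of ID4. Pnpla3, a lipid droplet acylhydrolase made under SREBP-1c, had 51.1, 50.5 and 54.5 CPM in LAC against 0.684, 0.958, 1.17 and 0.995 CPM in ID4, a difference of -5.77 (SE 0.99, edgeR adjusted p = 0.000271). Every ID4 liver was near 1 CPM and every LAC liver above 50.

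The enzymes of the pathway itself moved with them. Fasn, the multifunctional fatty acid synthase (chr11:120805846-120824547), had 1445, 1191 and 1892 CPM in LAC and 93.8, 96.7, 107 and 85.9 CPM in ID4. Its difference of -3.98 (SE 0.56, edgeR adjusted p = 3.21e-05) left no overlap. Thrsp, the lipogenic nuclear protein Spot 14, went from 374 ± 10.7 CPM (SD, n = 3) to 28.0 ± 5.83 CPM (n = 4). Elovl6, which lengthens palmitate, went from 290 ± 25.9 to 28.2 ± 1.21 CPM. Acly, which makes cytosolic acetyl-CoA from citrate, fell by 2.15 (SE 0.44). Acaca, acetyl-CoA carboxylase, fell by 2.05 (SE 0.34). Aacs, which activates acetoacetate for lipid synthesis, went from 182 ± 5.26 to 12.8 ± 2.26 CPM. The transcript of the regulator, Srebf1, had 462, 423 and 578 CPM in LAC and 224.2, 405, 362 and 183 CPM in ID4. Although the ID4 livers lay below the LAC livers, the difference of -0.73 (SE 0.44) was not called (edgeR adjusted p = 0.254). Dgat2, which joins the last fatty acid to triglyceride, had 479 ± 36.1 CPM in LAC and 550 ± 17.6 CPM in ID4 and was not called (0.20, SE 0.12).

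Cholesterol synthesis genes fell nearly as a whole. Of 26 genes of the pathway and its SREBP-2 targets, 25 fell and none rose, with a median difference of -2.42. The exception was Ggps1, which makes geranylgeranyl diphosphate on a side branch, with 5.41 ± 0.647 CPM in LAC and 5.09 ± 0.517 CPM in ID4. CCAAT, the box bound by NF-Y, a partner of SREBP-2, was found on either strand within the 250 bases before the start in 17 of the 18 members with a RefSeq promoter (94.4%), against 37.5% of 27025 genes. A form of the sterol regulatory element, TCACNCCAC, was found in 1 of the 18, Hmgcs1, against 1.22% of genes, and the E-box CACGTG in 4 of the 18 (22.2%) against 6.86%. Both strands were searched, no motif searched contains another, and a match describes letters only. The 3 promoters below carry the matches in capitals, from RefSeq on GRCm38.p6, each written 5′ to 3′ on the strand of its gene. They are chr13:119690101-119690350 (+), chr13:8885356-8885605 (+) and chr8:122443423-122443672 (-). In Hmgcs1 the 9 capitals starting 137 bases before the start are the sterol element, and all other capitals are CCAAT or its reverse complement.
Hmgcs1: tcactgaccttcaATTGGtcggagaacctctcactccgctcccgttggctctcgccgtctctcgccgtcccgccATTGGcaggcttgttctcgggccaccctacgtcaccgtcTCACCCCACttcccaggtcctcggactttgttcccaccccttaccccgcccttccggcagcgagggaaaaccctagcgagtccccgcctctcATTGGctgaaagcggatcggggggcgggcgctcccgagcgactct
Idi1: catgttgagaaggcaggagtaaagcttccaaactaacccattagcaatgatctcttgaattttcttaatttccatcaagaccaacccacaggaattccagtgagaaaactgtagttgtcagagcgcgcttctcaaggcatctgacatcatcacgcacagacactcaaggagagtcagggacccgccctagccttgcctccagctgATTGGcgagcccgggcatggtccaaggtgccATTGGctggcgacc
Mvd: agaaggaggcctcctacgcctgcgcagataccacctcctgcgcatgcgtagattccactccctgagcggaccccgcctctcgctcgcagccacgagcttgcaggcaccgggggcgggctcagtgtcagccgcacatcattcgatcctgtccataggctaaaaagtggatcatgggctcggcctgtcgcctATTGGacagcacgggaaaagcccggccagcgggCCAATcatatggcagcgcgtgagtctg

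Each of these genes fell. Hmgcs1, which condenses acetyl-CoA units at the head of the pathway and was chosen after its values were seen, had 582, 437 and 641 CPM in LAC and 128, 119, 96.5 and 94.0 CPM in ID4, a difference of -2.34 (SE 0.22, edgeR adjusted p = 8.94e-08). Idi1, isopentenyl diphosphate isomerase, had 250, 231 and 237 CPM against 20.6, 11.6, 10.8 and 15.4 CPM, a difference of -4.03 (SE 0.26, edgeR adjusted p = 9.83e-10). Mvd, mevalonate diphosphate decarboxylase, had 85.0, 74.6 and 120 CPM against 5.75, 5.15, 4.86 and 5.76 CPM, a difference of -4.11 (SE 0.39, edgeR adjusted p = 2.59e-07). In none of the 3 did a LAC liver come near an ID4 liver.

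Sqle, squalene epoxidase, the first oxygen-using step, moved farthest in the list. It had 139, 119 and 158 CPM in LAC and 5.94, 3.68, 3.29 and 3.66 CPM in ID4 (chr15:59315077-59331192), a difference of -5.06 (SE 0.40, edgeR adjusted p = 3.04e-08). Fdps, farnesyl diphosphate synthase, went from 471 ± 32.2 to 23.6 ± 1.35 CPM, a difference of -4.32. A brake on the pathway moved the same way. Insig1, which holds SREBP in the endoplasmic reticulum and is itself an SREBP target, went from 776 ± 250 to 70.0 ± 27.8 CPM.

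Set against nulliparous livers, part of these genes differed in both stages, with LAC above NUL and ID4 below. The comparisons with NUL share the NUL libraries with each other and the LAC or ID4 libraries with the main comparison. Scd1 differed from NUL by 2.10 in LAC (SE 0.41, edgeR adjusted p = 0.00211) and by -3.89 in ID4 (SE 0.42, edgeR adjusted p = 1.04e-05), where NUL stood at 3135 ± 713 CPM (n = 4). For Sqle the differences were 1.46 (SE 0.35) and -3.60 (SE 0.37), and for Idi1 0.90 (SE 0.24) and -3.14 (SE 0.25), all called. Elovl6, Acaca and Acly were called above NUL in LAC but not against NUL in ID4 (-1.24, -0.61 and -0.72, edgeR adjusted p = 0.204, 0.312 and 0.367). Aacs and Insig1 were called below NUL in ID4 but not against NUL in LAC (1.47 and 1.05, edgeR adjusted p = 0.0721 and 0.141), and Thrsp and Srebf1 were called in neither. At ID8, Scd1 stood at 10371 ± 5245 CPM (n = 3), from 6561 to 16353 CPM, a range that takes in the LAC livers. Sqle stood at 18.4 ± 6.66 CPM there, below every LAC liver.

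**Figure D2:**
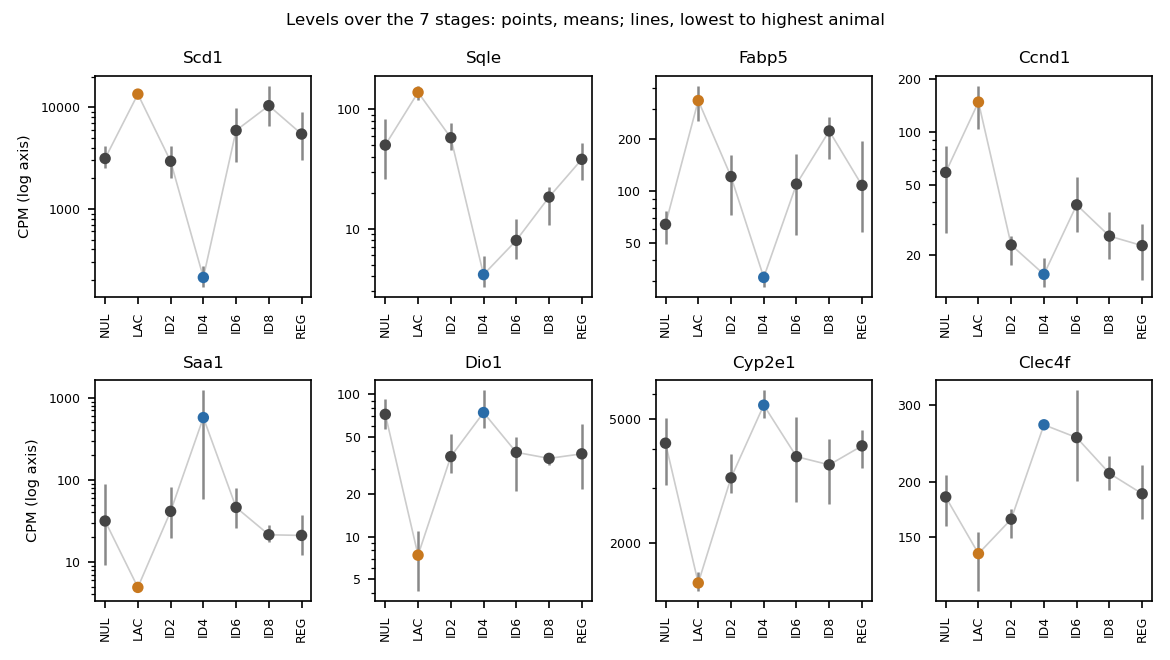
Levels of 8 genes (y axis, CPM, log scale) over the 7 stages (x axis), as stage means (points, LAC orange, ID4 blue) with lines from the lowest to the highest mouse. Scd1, Sqle, Fabp5 and Ccnd1 are highest in LAC and lowest in ID4, and Saa1, Dio1, Cyp2e1 and Clec4f are lowest in LAC and highest in ID4.

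Genes of glucose breakdown fell in part. Of 16 genes of glucose uptake and glycolysis, 8 fell and 1 rose, with a median of -0.31. Pklr, the liver pyruvate kinase that ChREBP drives, had 585, 578 and 571 CPM in LAC and 150, 122, 133 and 159 CPM in ID4. Those narrow groups differed by -2.04 (SE 0.28, edgeR adjusted p = 1.93e-05). Pfkfb1, which sets fructose 2,6-bisphosphate, and Eno1, enolase, fell too (-1.38 and -0.80). Ldha, lactate dehydrogenase A, was the riser, from 507 ± 11.0 to 828 ± 90.5 CPM.

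Of 17 genes of glucose and glycogen production, 5 rose and 3 fell. Without LAC_213, 1 fell. Pck1, phosphoenolpyruvate carboxykinase, the committed step from oxaloacetate (chr2:173153048-173159273), had 682, 369 and 876 CPM in LAC and 1899, 3235, 2426 and 3388 CPM in ID4. Both groups were spread, yet each ID4 liver was above each LAC liver, a rise of 2.09 (SE 0.44, edgeR adjusted p = 0.0015). Pcx, pyruvate carboxylase, rose by 0.39 (SE 0.10), a call lost without ID4_13 and ID4_15 together (edgeR adjusted p = 0.0647). Gbe1, the glycogen branching enzyme, had 87.9, 85.9 and 88.6 CPM against 44.1, 45.5, 42.5 and 44.9 CPM, a difference of -0.98 (SE 0.11, edgeR adjusted p = 3.04e-07). G6pc, glucose 6-phosphatase, which releases free glucose, had 482, 228 and 146 CPM against 380, 528, 382 and 998 CPM. Its groups overlapped and the difference of 1.0 (SE 0.45) was not called (edgeR adjusted p = 0.115). Fbp1, fructose 1,6-bisphosphatase, and Pygl, glycogen phosphorylase, were not called either (0.14 and -0.17).

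Among 27 genes of fatty acid oxidation and ketogenesis, 7 rose and 2 fell, with a median of 0.09. Cpt1a, the carnitine palmitoyltransferase that admits fatty acids, had 157, 168 and 202 CPM in LAC and 417, 333, 336 and 348 CPM in ID4, a rise of 1.03 (SE 0.20, edgeR adjusted p = 0.000456). Acat1, acetoacetyl-CoA thiolase, rose by 0.81 (SE 0.13) and Bdh1, which makes 3-hydroxybutyrate, by 0.94 (SE 0.10). Ehhadh, the peroxisomal bifunctional enzyme, was among the 2 that fell. It had 575, 585 and 580 CPM against 252, 264, 301 and 295 CPM, a difference of -1.06 (SE 0.13, edgeR adjusted p = 1.34e-06).

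Of 21 fasting-inducible PPAR alpha targets, 5 fell, 2 rose and 14 were not called. Cyp4a14 and Cyp4a10, neighbouring omega-hydroxylases of fatty acids (22122 bases apart on chromosome 4, and in part alike), fell (-2.76, SE 0.73, and -2.62, SE 0.62). Cyp4a14 had 85.4, 169 and 262 CPM in LAC against 20.3, 12.2, 13.3 and 55.9 CPM in ID4 (edgeR adjusted p = 0.00962). Without ID4_13 and ID4_15 together neither was called (edgeR adjusted p = 0.117 and 0.0746), and in a fit of the 7 ID4 and LAC libraries alone Cyp4a14 was not (0.0517). ID4_215 was the highest of its group in both genes and still below LAC. Acot1, an acyl-CoA thioesterase, had 18.5, 21.4 and 19.6 CPM against 3.39, 2.56, 2.73 and 5.43 CPM. Pdk4, the kinase that shuts off pyruvate dehydrogenase, fell from 22.0 ± 1.76 to 7.45 ± 0.975 CPM. Vnn1, the pantetheinase, rose, from 2.74, 3.03 and 2.46 CPM to 9.87, 10.5, 3.39 and 9.28 CPM, a difference of 1.59 (SE 0.49, edgeR adjusted p = 0.0221). ID4_211 lay close to LAC. The call was lost without ID4_15 or any 1 of the LAC libraries (adjusted p up to 0.0776), and no member rose without LAC_200 or LAC_213. Fgf21, the fasting hormone, had 1.66, 1.39 and 1.35 CPM against 2.08, 1.19, 0.775 and 1.94 CPM, and Angptl4, an inhibitor of lipoprotein lipase, had 33.4 ± 2.22 and 51.5 ± 20.6 CPM. Neither was called (edgeR adjusted p = 0.981 and 0.386).

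Lipid transport and uptake was divided, 7 of 26 higher and 5 lower, with a median of 0.08. Fabp5, a fatty acid binding protein, had 411, 341 and 257 CPM in LAC and 33.9, 34.2, 30.4 and 28.0 CPM in ID4, a difference of -3.41 (SE 0.41, edgeR adjusted p = 5.37e-06). Its counts were not whole (within 0.001) in any of the 27 libraries, so they depend on how reads shared with related sequences were divided. The same held in all 27 libraries for Acaca, Bhmt, Bysl, Cycs, Eno1, Hspa1b, Pcna, Serpina1a, Stat5b and Trf. It held in 22 to 26 libraries for Acot1, Ass1, Ccnd1, Cyp4a10, Gbp10, Hspd1, Idi1, Npm1, Pklr, Pltp, Sds, Tgtp1 and Ugt1a5, and in 15 to 17 for Abhd5, Cyp2b13, Fdps, Prlr, Scd1 and Socs2. Lpl, the lipase that takes fatty acids out of lipoproteins, went from 102, 102 and 163 CPM to 41.8, 56.2, 31.9 and 33.1 CPM (-1.59, SE 0.30). Pltp, the phospholipid transfer protein, and Fabp1, the main cytosolic carrier of the hepatocyte, fell too (-1.75 and -1.04). Upward went Apoa5, an activator of that lipase's system (0.77, SE 0.15), Lipc, hepatic lipase (0.76, SE 0.10), and Apoe, the ligand for remnant uptake (0.51, SE 0.13). Lipc had 213.1, 213.7 and 208.9 CPM in LAC against 332, 357, 342 and 408 CPM in ID4. Apoa1, the core protein of HDL, was not called (-0.18, SE 0.19). Of 13 lipid droplet genes tested, 3 fell, among them Abhd5, the co-activator of triglyceride lipase (-0.91, SE 0.13), and 1 rose, Mgll, monoglyceride lipase (0.48, SE 0.14). Without ID4_15, 2 rose.

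Among genes of amino acid breakdown, calls were mainly upward. Of 33 catabolic genes, 16 rose and 1 fell, with a median of 0.26. Agxt, alanine-glyoxylate aminotransferase, had 294, 313 and 314 CPM in LAC and 679, 628, 734 and 698 CPM in ID4, a rise of 1.16 (SE 0.12, edgeR adjusted p = 1.74e-07). Every ID4 liver was far above every LAC liver. Oat, ornithine aminotransferase, rose from 215.1 ± 22.7 to 459 ± 73.0 CPM, Prodh, proline dehydrogenase, by 0.77 and Sds, serine dehydratase, by 0.72. Gpt2, the mitochondrial alanine aminotransferase, was the one that fell, from 175 ± 12.9 to 91.7 ± 12.7 CPM. Tat, tyrosine aminotransferase, was not called (0.07, SE 0.27). In the urea cycle 3 of 10 genes rose: Slc25a15, the ornithine carrier (0.53, SE 0.12), Glud1 and Otc, ornithine transcarbamylase (0.39, SE 0.11), whose call was lost without LAC_240 (edgeR adjusted p = 0.0561). The call of Glud1, glutamate dehydrogenase (0.47, SE 0.14), was lost without ID4_15, LAC_200 or LAC_213, with an edgeR adjusted p of up to 0.105. Cps1, the entry enzyme, and Ass1 were not called (-0.08 and -0.18). Of 22 genes of methionine, serine and one-carbon metabolism, 3 rose and 2 fell (1 without ID4_215, LAC_200 or LAC_240), near the 11.5% and 10.9% of all genes. Mat1a, which makes S-adenosylmethionine in the adult liver, rose by 0.51 (SE 0.13), and Bhmt was not called (0.04, SE 0.30).

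In bile acid metabolism, 5 of 22 genes rose and 3 fell, with a median of -0.07. Cyp7a1, the rate-limiting enzyme of bile acid synthesis, had 174, 206 and 90.8 CPM in LAC and 55.1, 34.1, 35.1 and 57.9 CPM in ID4. The groups did not overlap, and the difference was -1.78 (SE 0.59, edgeR adjusted p = 0.0327). The call was lost when ID4_13, ID4_15, ID4_211, LAC_200 or LAC_213 was left out (adjusted p up to 0.119). Cyp27a1, which opens the alternative route, fell more evenly, from 401 ± 19.0 to 242 ± 47.4 CPM (-0.72, SE 0.13, edgeR adjusted p = 0.000136). Abcg8, a canalicular sterol exporter, rose by 0.87 (SE 0.24). Its call was lost without ID4_13 and ID4_15 together, with a title number under 200 as a covariate and in a fit of the ID4 and LAC libraries alone (edgeR adjusted p from 0.0647 to 0.0745). Abcb11, the bile salt export pump, was not called (-0.01, SE 0.11). Without ID4_15, ID4_211 or LAC_200, 1 member of the list fell.

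**Figure D3:**
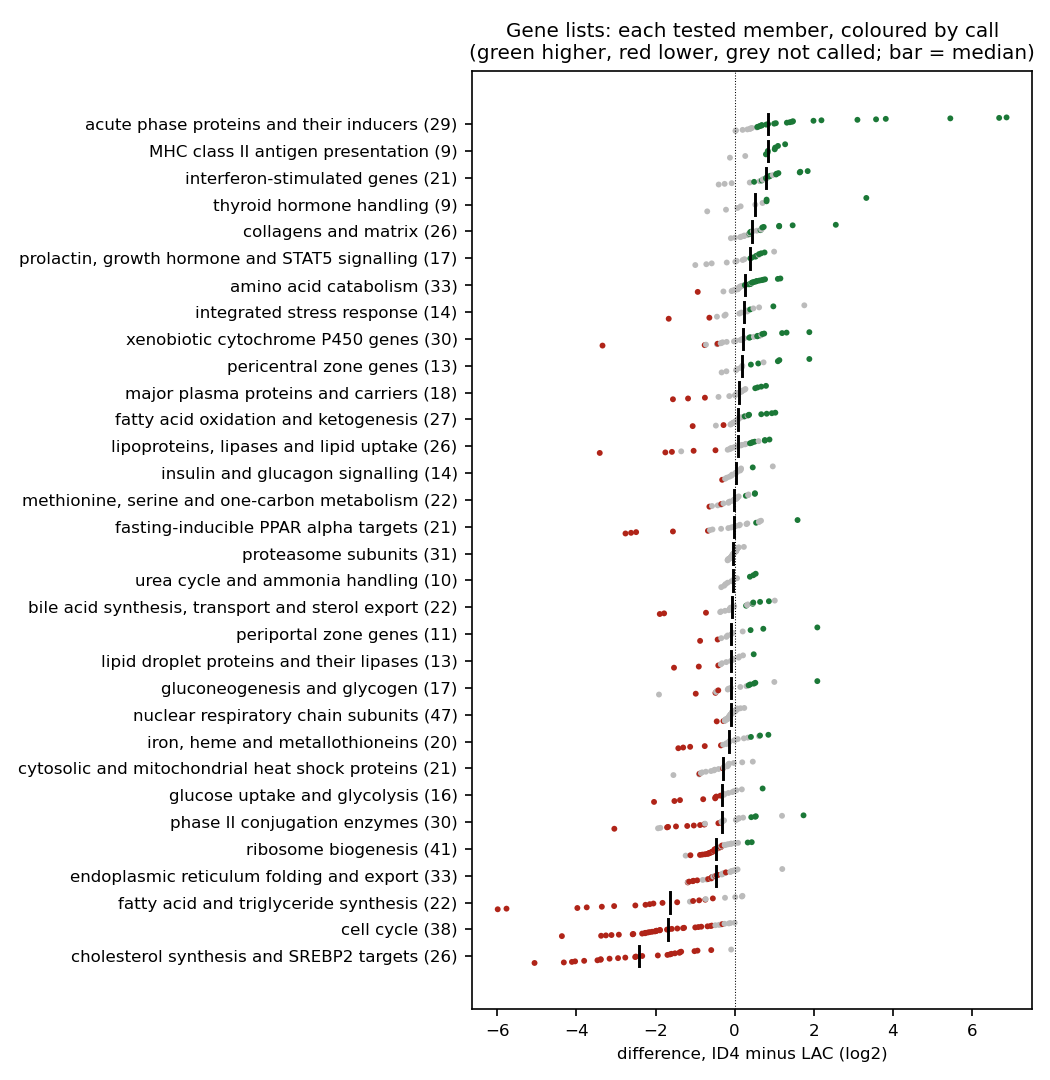
Differences between ID4 and LAC (x axis, log2) for each tested member of the process lists (y axis, number of members in brackets), green where called higher, red where called lower and grey where not called, with a black bar at the median. Cholesterol synthesis (median -2.42), cell cycle (-1.69) and fatty acid synthesis (-1.64) lie to the left, and acute phase proteins (0.85) to the right.

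Proliferation genes fell. Of 38 cell cycle genes, 31 fell and none rose, with a median of -1.69. CCAAT was found in 24 of the 30 members with a RefSeq promoter (80.0%), and TTTGAA, a form of the cell cycle homology region through which the DREAM and MMB complexes act, in 10 of 30 (33.3%) against 18.3% of all genes, on either strand. The promoter of Cdc20 is shown because it holds both, in capitals: TTTGAA starts 18 bases before the start and the CCAAT boxes 53 and 8 before it (chr4:118437344-118437593, minus strand).
Cdc20: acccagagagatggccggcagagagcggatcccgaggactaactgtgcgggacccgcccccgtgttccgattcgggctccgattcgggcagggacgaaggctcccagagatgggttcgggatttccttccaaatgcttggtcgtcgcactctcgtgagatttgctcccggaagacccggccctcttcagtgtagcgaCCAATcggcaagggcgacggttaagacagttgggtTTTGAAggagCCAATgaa

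Cdc20, the activator of the anaphase-promoting complex, had 16.4, 11.3 and 15.8 CPM in LAC and 0.821, 1.02, 0.526 and 0.442 CPM in ID4, a difference of -4.37 (SE 0.48, edgeR adjusted p = 9.08e-07). Every ID4 liver was at about 1 CPM or less. Ccnd1, the cyclin of G1 entry, had 105, 185 and 157 CPM in LAC against 13.3, 19.3, 15.3 and 14.4 CPM in ID4 (-3.25, SE 0.36, edgeR adjusted p = 2.24e-06). It differed from NUL by 1.33 in LAC (SE 0.35) and by -1.93 in ID4 (SE 0.34). Ccnb1 and Plk1, mitotic cyclin and kinase, fell (-3.38, SE 0.60, and -3.11, SE 0.47). Mki67, the proliferation antigen, went from 17.6, 15.2 and 23.8 CPM to 5.28, 5.53, 3.41 and 3.54 CPM (-2.09, SE 0.50). Mitotic genes were not at their lowest in ID4: Ccnb1, Plk1 and Mki67 ranked 4 of 7 stages there. Pcna, the replication clamp, and Cdkn1a, the p21 inhibitor, were not called (-0.11 and 0.00).

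Of 41 ribosome biogenesis genes, 24 fell and 2 rose, with a median of -0.46. This count leant on 1 library, since 9 fell without LAC_213, and 13 fell without the 2 ID4 libraries numbered under 200. Rrp12, an export factor of ribosomal subunits, had 13.1, 23.3 and 22.6 CPM in LAC and 10.3, 8.26, 9.26 and 8.40 CPM in ID4 (-1.12, SE 0.28). LAC_200 was low in its group. Bysl, a small-subunit factor, fell by 0.88 (SE 0.17). Rcl1 rose by 0.43 (SE 0.09), as did Npm1, nucleophosmin, by 0.33 (SE 0.10), a call lost without LAC_240 (edgeR adjusted p = 0.0921). Myc, an activator of these genes, had 3.92, 2.27 and 5.26 CPM against 1.64, 1.83, 1.55 and 1.44 CPM and was not called (-1.24, SE 0.68, edgeR adjusted p = 0.21).

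Folding and export in the endoplasmic reticulum gave 14 of 33 lower and none higher, with a median of -0.47. Leaving out ID4_13 gave 9, and leaving out ID4_215 or LAC_240 gave 8. Syvn1, a ligase of protein disposal, had 149, 174 and 159 CPM in LAC and 60.7, 80.2, 80.5 and 60.7 CPM in ID4, a difference of -1.19 (SE 0.31, edgeR adjusted p = 0.00839, and 0.0591 without ID4_13 and ID4_15 together). Dnajb9 fell by 1.04 (SE 0.23). Hspa5, the chaperone BiP, had 1508, 1958 and 1508 CPM against 746, 1084, 1332 and 907 CPM. Its groups did not overlap, and it was not called (-0.70, SE 0.29, edgeR adjusted p = 0.0897). Cytosolic and mitochondrial heat shock genes gave 2 of 21 lower, near the 10.9% of all genes, Hspa4l (-0.89, SE 0.16) and the mitochondrial chaperonin Hspd1 (-0.29, SE 0.09). The call of Hspd1 was lost without ID4_13 or LAC_213 (edgeR adjusted p up to 0.134). Without ID4_211 the count was 9, without LAC_240 it was 4, and without ID4_13 or LAC_213 it was 1. Without LAC_213, 1 heat shock gene was called higher. Hspa1b ran from 92.8 to 278 CPM in LAC and from 21.9 to 159 CPM in ID4 and was not called. In the integrated stress response 2 of 14 tested fell, Ddit4 (-1.67, SE 0.18) and Atf4 (-0.64, SE 0.15), and 2 rose, among them Trib3 (0.98, SE 0.21).

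The steepest rises were in the acute phase. Of 29 acute phase proteins and their inducers, 21 rose and none fell, with a median of 0.85. The C/EBP letters TTGCNNAA, searched on both strands, were found in 14 of the 24 members with a RefSeq promoter (58.3%) against 10.8% of all genes, and CCAAT in 4 of 24 (16.7%). TTCCNGGAA, the gamma-activated site that STAT factors bind, was found in 2 of 24 (8.33%) against 1.09%. The 4 promoters below belong to the steepest risers and carry the C/EBP match in capitals (chr7:46742981-46743230, minus strand; chr7:46751583-46751832, plus; chr2:32387740-32387989, minus; chr4:63362199-63362448, plus).
Saa1: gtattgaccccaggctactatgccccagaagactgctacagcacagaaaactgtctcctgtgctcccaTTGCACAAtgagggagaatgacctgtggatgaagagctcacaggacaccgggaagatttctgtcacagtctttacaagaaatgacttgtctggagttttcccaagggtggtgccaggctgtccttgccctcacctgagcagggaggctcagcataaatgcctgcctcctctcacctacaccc
Saa2: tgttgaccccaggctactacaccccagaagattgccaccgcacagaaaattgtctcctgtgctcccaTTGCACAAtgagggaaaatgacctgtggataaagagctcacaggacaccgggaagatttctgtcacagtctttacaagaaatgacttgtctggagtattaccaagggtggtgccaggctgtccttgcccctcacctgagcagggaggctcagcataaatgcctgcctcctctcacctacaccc
Lcn2: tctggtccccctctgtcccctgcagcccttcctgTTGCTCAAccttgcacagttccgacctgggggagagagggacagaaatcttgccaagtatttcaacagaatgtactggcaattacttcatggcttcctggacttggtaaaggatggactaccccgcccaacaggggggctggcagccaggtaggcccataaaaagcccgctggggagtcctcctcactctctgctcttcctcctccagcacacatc
Orm2: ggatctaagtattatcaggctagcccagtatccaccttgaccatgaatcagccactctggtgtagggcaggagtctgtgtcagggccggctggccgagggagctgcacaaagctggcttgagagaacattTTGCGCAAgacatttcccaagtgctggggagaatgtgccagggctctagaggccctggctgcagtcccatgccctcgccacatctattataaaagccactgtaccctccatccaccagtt

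The match starts 182 and 183 bases before the start in Saa1 and Saa2 and 120 bases before it in Orm2. Saa1, serum amyloid A1, had 5.40, 4.85 and 4.4 CPM in LAC and 1242, 187, 806 and 58.6 CPM in ID4. The lowest ID4 liver was above every LAC liver, while the ID4 livers spread widely among themselves. Saa1 rose by 6.88 (SE 1.13, edgeR adjusted p = 0.000168). Saa2, 8810 bases away on chromosome 7 and close to it in sequence, had 3.95, 3.21 and 2.39 CPM against 822, 82.9, 373 and 37.1 CPM (6.69, SE 1.17). The 4 ID4 livers held the same order in both, and the counts of both were whole in all 27 libraries.

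Lcn2, lipocalin 2, which binds bacterial siderophores, had 1.98, 1.86 and 2.03 CPM in LAC and 165, 74.2, 74.2 and 29.5 CPM in ID4 (5.45, SE 0.97, edgeR adjusted p = 0.000353). ID4_13 was highest and ID4_215 lowest. Orm2, an orosomucoid, had 11.4, 17.1 and 9.57 CPM against 282, 165, 240 and 31.6 CPM (3.82, SE 0.75), and its neighbour Orm3, 2938 bases away, rose by 3.10 (SE 0.46). Saa3, the form also made by macrophages, was less spread within ID4 than Saa1 and Saa2. It had 26.2, 35.8, 22.6 and 16.6 CPM there, against 2.6, 2.58 and 1.18 CPM in LAC (3.58, SE 0.44). Outside the list, Lrg1, a secreted glycoprotein, rose from 67.6 ± 3.07 to 390 ± 110 CPM and the chemokine Cxcl1 from 1.52 ± 0.166 to 8.90 ± 4.42 CPM. Among the abundant members, chosen after their values were seen, haptoglobin (Hp) had 1540, 1706 and 1542 CPM against 8596, 5459, 6746 and 4626 CPM (1.99, SE 0.34), and hemopexin (Hpx) rose by 1.48 (SE 0.24). The fibrinogen chains Fga and Fgb were not called (0.32 and 0.39). Against NUL, Saa1 was not called in LAC (-2.69, SE 0.94, edgeR adjusted p = 0.0717) and was 4.19 higher in ID4 (SE 0.86, edgeR adjusted p = 0.00717).

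Macrophage markers stood higher in the same livers. All 14 markers of Kupffer cells and macrophages rose, with a median of 1.04, and their summed level was 428 to 585 CPM in LAC and 981 to 1089 CPM in ID4. Clec4f, a receptor restricted to Kupffer cells and chosen after its values were seen like the other markers named here, had 154, 146 and 113 CPM against 270, 265, 269 and 277 CPM (0.97, SE 0.14, edgeR adjusted p = 1.21e-05). The ID4 livers were nearly alike. Cd5l rose by 1.43 (SE 0.19), Adgre1 (F4/80) by 1.41 (SE 0.15) and Marco by 1.46 (SE 0.30). Of the markers of other cells, 6 of 7 rose for monocytes, 3 of 8 tested for neutrophils and 6 of 13 for T and NK cells. At 4.30 to 5.93 CPM in LAC and 9.96 to 13.8 CPM in ID4, the summed monocyte markers were low in both groups, as were those of neutrophils (1.91 to 3.48 and 4.42 to 8.29 CPM) and of T and NK cells (2.42 to 3.57 and 6.13 to 8.09 CPM). B and plasma cell markers summed to 20.4 to 33.9 CPM in LAC and 21.7 to 41 CPM in ID4, with 1 of 9 higher. In a bulk sample, more cells of a type, more RNA per cell and a smaller share of RNA from other cells cannot be told apart. The part of these cells in the acute phase, interferon, antigen presentation and matrix results was not tested.

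**Figure D4:**
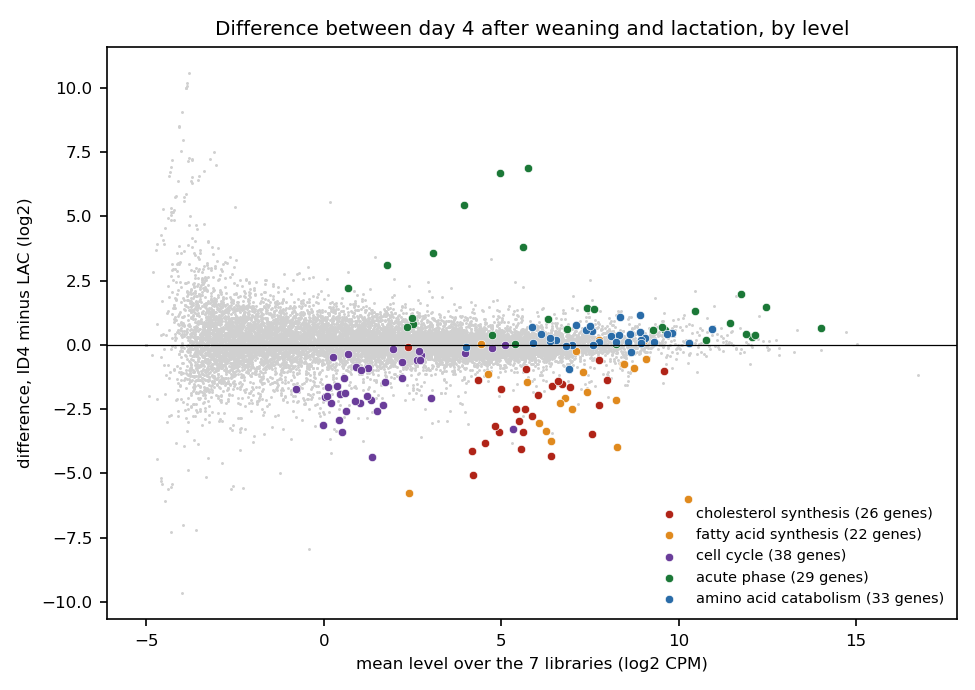
Difference between ID4 and LAC (y axis, log2) against the mean level over the 7 libraries (x axis, log2 CPM) for all 16428 genes tested (grey), with 5 lists in colour. Acute phase genes lie above 0, cholesterol, fatty acid and cell cycle genes lie mostly below it, and amino acid catabolism genes sit close to 0, mostly above.

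Interferon-stimulated genes gave 12 of 21 higher and none lower, with a median of 0.80. Without LAC_213, 7 rose, and without ID4_15, 1 fell. Gbp2 and Gbp3, guanylate-binding proteins that act against intracellular microbes, rose by 1.85 (SE 0.28) and 1.66 (SE 0.28). The related Gbp10 had 20.9, 14.3 and 13.4 CPM in LAC and 90.4, 122, 75.8 and 67.5 CPM in ID4, a rise of 2.46 (SE 0.42, edgeR adjusted p = 0.000264), with ID4_15 the highest. Gbp2b, 1423 bases from Gbp2, rose by 2.45 (SE 0.33), and Tgtp1, a GTPase of the same response, by 2.20 (SE 0.49). These gene families are near-identical in places. Cxcl10, the interferon-induced chemokine, had 0.862, 0.430 and 0.710 CPM against 1.76, 3.19, 1.98 and 1.45 CPM (1.65, SE 0.34). Bst2, tetherin, was not called (-0.25, SE 0.12).

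Of 9 genes of MHC class II presentation, 7 rose. The count did not hold across libraries: it was 2 without ID4_15, 4 without LAC_200, 1 without LAC_213 and 0 without LAC_240. H2-Aa, an antigen-presenting chain, had 6.28, 4.4 and 3.62 CPM in LAC and 8.53, 12.4, 8.67 and 11.1 CPM in ID4 (1.10, SE 0.29, edgeR adjusted p = 0.00826, and 0.0537 without LAC_240). Of 26 collagen and matrix genes, 10 rose and none fell, with a median of 0.43, and 5 rose without LAC_213. Tgfbi, a matrix protein that binds collagen, had 13.9, 14.9 and 13.8 CPM against 42.7, 38.9, 40.9 and 34.7 CPM (1.47, SE 0.15, edgeR adjusted p = 1.23e-07). Col3a1, collagen III, had 13.2, 12.4 and 28.7 CPM against 47.3, 41.4, 41.1 and 28.1 CPM (1.13, SE 0.28). Col3a1 was not called without ID4_13 and ID4_15 together (edgeR adjusted p = 0.0675) or in a fit of the ID4 and LAC libraries alone (0.0798). The highest LAC liver lay within ID4 for Col3a1 but far below it for Tgfbi. Timp1, an inhibitor of matrix proteases, was at 0 to 0.0862 CPM in LAC and 0.149 to 0.258 CPM in ID4, and its call was lost without LAC_213 or LAC_240 (adjusted p up to 0.0939). Fibronectin (Fn1), which hepatocytes also secrete, was not called (0.38, SE 0.16).

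Of the markers of stellate cells and fibroblasts 7 of 12 rose, and their sum was 361 to 377 CPM in LAC and 458 to 501 CPM in ID4. For sinusoidal endothelial cells the count was 6 of 11 and the sums 354 to 419 and 441 to 534 CPM. Clec4g among them, also chosen after its values were seen, rose by 0.58 (SE 0.11). In bile duct cells, 1 of 7 tested rose, and no erythroid (7 tested) or adipocyte (5 tested) marker was called.

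Plasma proteins did not move together. Of 18 major plasma proteins, 4 rose and 3 fell. Alb, albumin, the most abundant liver transcript here (chr5:90460897-90476602), had 168332, 203208 and 159800 CPM in LAC and 79429, 80604, 71132 and 82029 CPM in ID4, a difference of -1.18 (SE 0.14, edgeR adjusted p = 1.2e-06). Every LAC liver was above every ID4 liver. It was 0.98 above NUL in LAC (SE 0.14) and not called against NUL in ID4 (-0.20, SE 0.13). Afp, alpha-fetoprotein, the fetal counterpart, fell from 5.68 ± 0.540 to 1.93 ± 0.149 CPM. Plg, plasminogen, rose by 0.67 (SE 0.12) and Hrg, histidine-rich glycoprotein, by 0.79 (SE 0.11). Trf, transferrin, and Serpina1a, an alpha-1-antitrypsin gene of a family of near-copies, were not called (0.04 and -0.41), although Serpina1a was called lower in 6 of the alternatives. Scaling without the mitochondrial genes and the 10 most abundant genes kept the call of all 133 called genes followed by name.

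**Figure D5:**
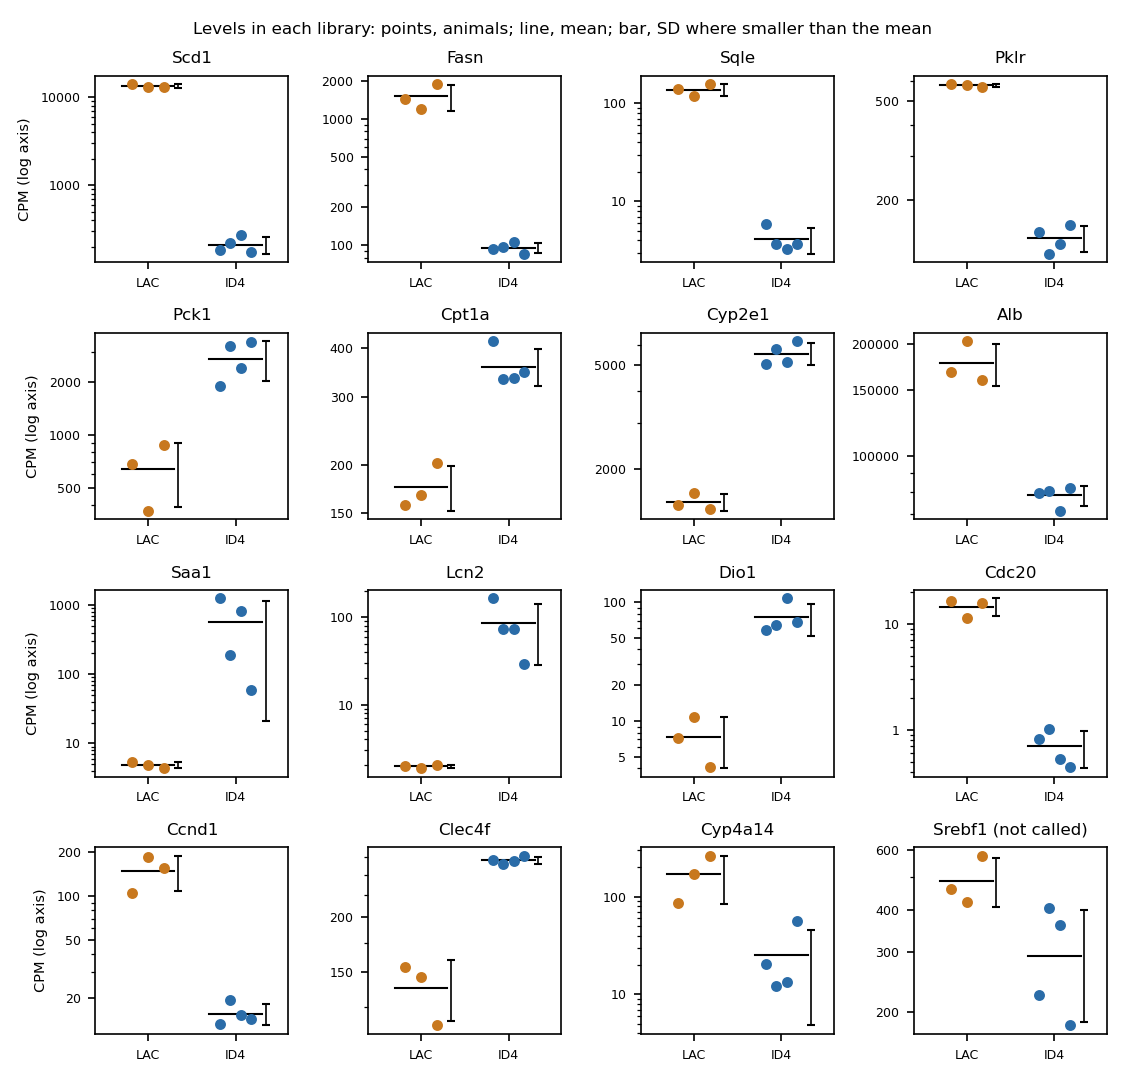
Level of 16 genes in each library (y axis, CPM, log scale) in LAC (orange, 3 livers) and ID4 (blue, 4 livers), with the mean as a line and the SD as a bar beside it. In every panel shown the LAC and ID4 points do not overlap, and Srebf1 is the gene of the 16 that was not called.

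Of 9 genes of thyroid hormone handling, 3 rose and none fell. Dio1, the type 1 deiodinase that activates thyroxine (chr4:107291465-107307169), had 7.17, 10.9 and 4.14 CPM in LAC and 58.2, 64.8, 107 and 67.8 CPM in ID4, a rise of 3.33 (SE 0.42, edgeR adjusted p = 8.66e-06) and a 10.1-fold ratio of means. In NUL, Dio1 stood at 72.4 ± 16.1 CPM. ID4 did not differ from NUL beyond the spread (0.04, SE 0.33, edgeR adjusted p = 0.97), and LAC differed from it by -3.29 (SE 0.42, edgeR adjusted p = 3.7e-05). Slc16a10, a transporter of the hormone, rose as well (0.81, SE 0.24, edgeR adjusted p = 0.0187). Its call was lost without ID4_211, LAC_200 or LAC_240, with an edgeR adjusted p of up to 0.0750. Ttr, the thyroxine carrier, was not called (-0.22, SE 0.12).

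Of 17 tested genes of prolactin, growth hormone and STAT5 signalling, 7 rose and none fell, with a median of 0.40. Stat5b, the transcription factor of both hormones, had 56.4, 43.6 and 55.3 CPM against 84.4, 95.2, 87.6 and 82.5 CPM (0.76, SE 0.11, edgeR adjusted p = 1.31e-05). The receptors Ghr and Prlr rose by 0.55 (SE 0.11) and 0.40 (SE 0.10). Igf1 rose from 511 ± 31.8 to 692 ± 56.9 CPM, a call lost without ID4_13 and ID4_15 together and with the effective length offset (edgeR adjusted p = 0.0602 and 0.0554). Igfals, which stabilises it in blood, rose by 0.61 (SE 0.16). The feedback inhibitors that STAT5 induces were not called: Socs2 had 28.4, 55.6 and 41.1 CPM against 70.0, 22.2, 36.2 and 40.6 CPM, and Cish overlapped in the same way (-0.72, SE 0.79). In the insulin and glucagon list 1 of 14 rose, the glucagon receptor Gcgr (0.46, SE 0.08), and 1 fell, Pde3b. The fall was absent from the calls without ID4_215 or LAC_240, and without ID4_215 the number rising was 2. Insr, the insulin receptor, was not called (-0.08, SE 0.10).

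Of 30 xenobiotic cytochrome P450 genes, 10 rose and 3 fell. Cyp2e1, the ethanol- and ketone-metabolising enzyme of pericentral hepatocytes (chr7:140763739-140774987), had 1460, 1617 and 1408 CPM in LAC and 5049, 5769, 5137 and 6187 CPM in ID4. The rise of 1.89 (SE 0.20, edgeR adjusted p = 2.6e-07) was even across livers. Cyp3a16 rose by 1.31 (SE 0.20), and Cyp2b13 by 1.2 (SE 0.27). Cyp2c55 fell from 4.79 ± 1.85 to 0.470 ± 0.169 CPM and Cyp3a11 fell too (-0.76, SE 0.19). Without ID4_211, 6 fell. The families hold close copies. The counts of Cyp2e1, Cyp3a16 and Cyp2c55 were whole in all 27 libraries and those of Cyp3a11 in all but 1, while those of Cyp2b13 were not whole in 16 and depend on how shared reads were divided. Pericentral genes as a list gave 5 of 13 higher (3 without ID4_215, LAC_200 or LAC_240). Glul, glutamine synthetase, the most restricted of them, was not called (0.06, SE 0.11). In the periportal list 3 of 11 rose and 2 fell, Etnppl among the latter (-0.87, SE 0.14), and 1 fell without LAC_200.

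Phase II enzymes went mainly the other way, 11 of 30 lower and 4 higher. The glutathione transferases Gstm1, Gstm2 and Gstm3, which adjoin on chromosome 3, fell (-1.48, SE 0.13; -1.71, SE 0.19; and -3.04, SE 0.30). Gstm3 had 31.1, 22.7 and 31.2 CPM in LAC and 2.13, 4.76, 3.44 and 3.44 CPM in ID4 (edgeR adjusted p = 2.02e-07). Sult2a8, a bile acid sulfotransferase, rose, from 123, 114 and 58.1 CPM to 286, 279, 429 and 320 CPM (1.74, SE 0.24). The falls and the rise each left no overlap. Slc22a7, the organic anion transporter OAT2, had 22.4, 21.5 and 16.5 CPM in LAC against 102, 99.7, 99.7 and 80.1 CPM in ID4 (2.24, SE 0.31, edgeR adjusted p = 2.05e-05).

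Iron, heme and metal genes gave 3 of 20 higher (1 without LAC_240) and 5 lower (3 without ID4_15 or LAC_213). Tfrc, the transferrin receptor, had 87.6, 96.3 and 127 CPM in LAC and 33.2, 34.3, 49.6 and 37.2 CPM in ID4, a difference of -1.42 (SE 0.32, edgeR adjusted p = 0.00255). Slc40a1, the iron exporter ferroportin, which macrophages also make, had 146, 179 and 129 CPM against 296, 290, 259 and 247 CPM (0.85, SE 0.11, edgeR adjusted p = 4.42e-06). Slc39a5, a zinc importer, fell by 1.12 (SE 0.24). Alas1, the first enzyme of heme synthesis, ran from 284 to 770 CPM in LAC, and its call (-1.30, edgeR adjusted p = 0.0232) was lost without ID4_13, ID4_15 or LAC_213. Fth1, ferritin heavy chain, was not called (-0.15, SE 0.09).

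Housekeeping complexes had medians near 0. Of 31 proteasome subunits none was called, with a median of -0.03, although 1 was called higher without ID4_13. Psmd2 had 217 ± 10.0 CPM in LAC and 219 ± 6.31 CPM in ID4 (0.01, SE 0.09). Of 47 nuclear respiratory chain subunits 2 fell, cytochrome c (Cycs, -0.45, SE 0.10, not called with the effective length offset, edgeR adjusted p = 0.0626) and Ndufa4 (-0.28, SE 0.10), with a median of -0.10. The count was 5 without ID4_215 and 1 without any other 1 of the libraries but ID4_211. The call of Ndufa4 was lost when any 1 library but ID4_215 was left out (edgeR adjusted p up to 0.137). Atp5b, of the ATP synthase, was not called (-0.07, SE 0.09).

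Some of the steepest changes belonged to none of the lists. Bmf, a BH3-only activator of apoptosis, had 0.672, 0.636 and 1.0 CPM in LAC and 5.91, 17.3, 4.99 and 4.64 CPM in ID4, a rise of 3.41 (SE 0.75, edgeR adjusted p = 0.00234), with ID4_15 far above the others. Spry4, an inhibitor of receptor tyrosine kinase signalling, had 1.74, 1.96 and 2.82 CPM against 7.95, 16.2, 10.5 and 8.10 CPM (2.29, SE 0.48). Dntt, a template-free DNA polymerase of lymphocyte precursors, had 12.0, 10.8 and 6.44 CPM against 1.09, 0.429, 0.746 and 0.60 CPM (-3.75, SE 0.41, edgeR adjusted p = 5.46e-07). Lack of overlap between the groups was a condition for naming all 3. Ugt1a5 fell by 3.42 (SE 0.24), but it shares exons with the other Ugt1a genes and its counts were not whole in 26 of 27 libraries, so the fall cannot be assigned to it alone.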

How the data were processed

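Whole livers were frozen and pulverised and RNA taken up in Trizol went through the NEBNext Ultra RNA library preparation, per the labels' protocols. The submitters' processing notes name STAR 2.6.1a, RSEM 1.3.1 and the builds mm10 and GRCm38; the annotation release and the use of strand are not given in the sources used here. The deposited tables hold, per the file headers, RSEM expected counts and TPM, which the authors computed per library; the deposited effective length is that of RSEM, an other kind of value used only as an offset. Expected counts were rounded and analysed with edgeR 4.0.16 in R 4.3.3: filterByExpr by stage (16428 genes), TMM scaling, and 1 quasi-likelihood fit (robust) of all 27 libraries in 7 stages, two-sided. The fitted biological coefficient of variation was 0.190. The chi-square between replicate libraries, averaged over genes, was 45.9 to 97.3, far beyond counting noise as a whole. That mean does not give the excess spread of a typical gene. Libraries are single animals as far as the labels say. Symbols and positions come from GENCODE M21 on GRCm38, which held 51633 of 51826 identifiers; the rest held 0.0147% of counts.

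Named genes are those called without overlap at a mean log2 CPM of 1 or more (the 15 steepest in each direction), up to 4 called members in each direction and 2 uncalled members of each list, and a set chosen by name; 8 genes outside this rule are said to be so, and some genes that the rule selects are not reported here. The comparison, its members and the lists were chosen with earlier results of these data known. Alternatives used RLE scaling, DESeq2 1.42.0, no low-count filter, each library left out, only these 7 libraries, covariates for title number, sequencing runs and clock genes, an effective length offset, scaling without mitochondrial and top 10 genes, limma 3.58.1 on log2 of the authors' TPM plus 1 or 0.1, and an adjusted p under 0.01. The fit was tested on simulated data. Promoter sequences are from RefSeq.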

Additional observations from a re-analysis of the deposited data

Results flagged for a closer look

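Within the 4 ID4 livers, 9 of the 169 genes followed by name had 1 liver set apart, its gap to the nearest other liver, as a share of the whole range of the group, exceeding the 95% critical value of Dixon's test (on log2 CPM). Chance alone gives about 1 in 20 such groups, so that number is near what chance gives. ID4_15 was the highest for Acaca (73.6 CPM against 55.7 to 58.3 CPM in the others, a gap of 0.841 of the range), Tgtp1 (41.1 against 17.92 to 19.98 CPM, 0.869) and Trib3 (8.69 against 5.96 to 6.07 CPM, 0.951), and the lowest for Fdps (21.6 against 24.1 to 24.5 CPM, 0.861). ID4_211 was the lowest for Bdh1 (321 against 376 to 384 CPM, 0.892), Vnn1 (3.39 against 9.28 to 10.5 CPM, 0.888) and Cyp3a11 (524 against 671 to 697 CPM, 0.865). ID4_215 was the lowest for Slc22a7 (80.1 against 99.7 to 102 CPM, 0.903) and the highest for Ndufa4 (212 against 159 to 166 CPM, 0.862), where it lay within the LAC range. In the other 8 genes the separated liver stayed on the same side of every LAC liver as its group.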

How the results depend on the processing

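Direction was kept by every called gene followed by name under every alternative run. Leaving out 1 library gave 2678 to 3309 calls, the fewest without LAC_213. Without the 2 ID4 libraries numbered under 200 there were 2280 calls, and 18 of 133 genes followed by name lost theirs: Abcg8, Alas1, Ciita, Col3a1, Cyp4a10, Cyp4a14, Cyp7a1, Glud1, Hal, Hspd1, Hyou1, Igf1, Lgr5, Ndufa4, Pcx, Slco1a1, Syvn1 and Vnn1. At an adjusted p under 0.01 there were 2121 calls. The number of calls under the other alternatives lay within 1.5 times the reported one. Leaving out ID4_13 and ID4_15 changed the number of libraries and the title range together, and the cause of the lower count was not tested. All 133 calls were kept under RLE scaling, DESeq2 and scaling without mitochondrial and top 10 genes. Calls were lost for 11 genes with a title number under 200 as a covariate, for 8 each with limma on log2 TPM plus 1 or 0.1 and with the effective length offset, for 7 in the ID4 and LAC libraries alone, for 6 without the low-count filter, and for 2 each with the sequencing runs or the clock genes as a covariate. Leaving out 1 library lost 5 to 12. Among genes not called, Serpina1a gained a call in 6 alternatives, Fn1 and Hspa5 in 2 each, and Fga, Fgb, G6pc, Hspa1b and Myc in 1 each. No paired analysis was possible because no animal number occurs in both groups. With 3 and 4 mice, small differences could not be called. Title number and stage cannot be fully told apart, since no LAC library is numbered under 200.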
